A study of Mus musculus with 36 samples.

Results

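The genes described here give T cells their identity and carry the signal of the T cell receptor in mesenteric lymph nodes, the nodes that drain the gut. They were taken from a list of 36 genes by the rule that every probe set whose only gene symbol is a listed gene counts, on both kinds of array and at every time point. The rule found 34 of the 36 genes with 66 probe sets, out of 18193 genes and 45137 probe sets in all. Another 2 listed genes had no uniquely named probe set and are not analysed here. Signal was high enough for testing in 56 of the 66 probe sets, which cover 31 genes. Il2ra, Foxp3 and Gata3 had no tested probe set.

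The mice received phosphate-buffered saline (PBS, the day 0 group) or a soluble form of the lymphotoxin-beta receptor for 1, 2, 3, 27 or 35 days. The soluble receptor is a decoy that takes up lymphotoxin and LIGHT, cytokines that stromal cells of the node sense through the membrane-bound receptor. Each of the 6 groups has 3 samples on each of 2 Affymetrix arrays with different probe sets, called array A and array B here, which makes 36 measurements. The sources used here give no strain, age or dose and describe no PBS group at the later days and no group given a control protein. They do not say whether samples of a group are separate animals, so a p-value here reflects only how much these samples vary, which may be technical. The source label of 1 sample of day 1 on array B is an unrelated phrase, and that sample was placed by its title and description.

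As background, the T cell receptor signals through the CD3 chains and the zeta chain (Cd247), which carry the motifs that Src-family kinases such as Fyn phosphorylate. The kinase Zap70 then docks and phosphorylates the scaffold Lat, and Lat and Lcp2 (SLP-76) assemble the complex that leads to calcium and Ras signals. Cd4 and Cd8a with Cd8b1 bind MHC molecules beside the receptor, Cd28 and Icos add costimulation, and Cd5, Ctla4 and Pik3ip1 restrain the signal. Naive T cells survive on interleukin 7, which stromal cells of the node make and which T cells sense through Il7r. They leave the node through S1pr1, a receptor whose gene is activated by Klf2.

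The samples carried the markers of T cells. Cd3e read 1746 to 2239 intensity units over the 18 arrays of kind A, Cd4 read 825.7 to 1019 and Cd8a read 1011 to 1215, where the median over all probe sets of that table was 286.7. The recombinase gene Rag1, a marker of immature thymocytes, read at most 40.32 units, below the floor of 122.6 on all 18 arrays, and 0 of 4 immature thymocyte markers could be tested. The median of an array was 272.8 to 299.5 for kind A and 149.8 to 165.2 for kind B, and the number of arrays limits the precision. Day 3 sample 3, day 27 sample 2 and day 35 sample 3 agreed least with the rest on array A, with array weights of 0.269, 0.232 and 0.287. The small subunits of the respiratory chain, a list of short and abundant transcripts with 40 tested genes, moved as a block. Their mean log2 level relative to PBS lay between -0.044 and 0.068 in 8 of the 9 samples of days 1 to 3 and at -0.407 in day 3 sample 3. It lay between -0.436 and -0.16 at day 27 and between -0.599 and -0.389 at day 35.

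The T cell genes changed in both directions and by small amounts, beside larger changes of 4 genes of the node stroma that depend on lymphotoxin. The median absolute log2 change against PBS of the T cell probe sets on array A was 0.07 at day 3 and 0.114 at day 35, where that of all tested probe sets was 0.076 and 0.107. On array B it was 0.096 and 0.156, where that of all was 0.094 and 0.128. By brightest probe set the T cell genes ran from -0.43 to 0.31 at day 35, so a mean over them averages changes of opposite sign. The mean log2 level of the 29 T cell genes tested on array A, relative to PBS, ranged from -0.07 to 0.062 in the 9 samples of days 1 to 3, from -0.055 to 0.073 at day 27 and from -0.097 to 0.034 at day 35. For Glycam1 and Madcam1 of the high endothelial venules, Mfge8 of follicular dendritic cells and the chemokine Cxcl13 the same mean was -1.132 to -1.022 at day 3 and -0.554 to -0.275 at day 35. Glycam1 fell by 1.58 on the log2 scale at day 3 (SE 0.117, adjusted p = 6.93e-07), and Mfge8 fell by 1.32 (SE 0.107, adjusted p = 1.59e-06). Among the T cell genes, the signalling brake Pik3ip1 was called lower from day 3 on. Another 6 genes were called between the late and the early days, a share of probe sets (16.3% on array A) near that of all tested probe sets (15.4%). Intensities come from RNA of the whole node, where fewer cells of a type and less RNA per cell cannot be told apart.

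**Figure D1:**
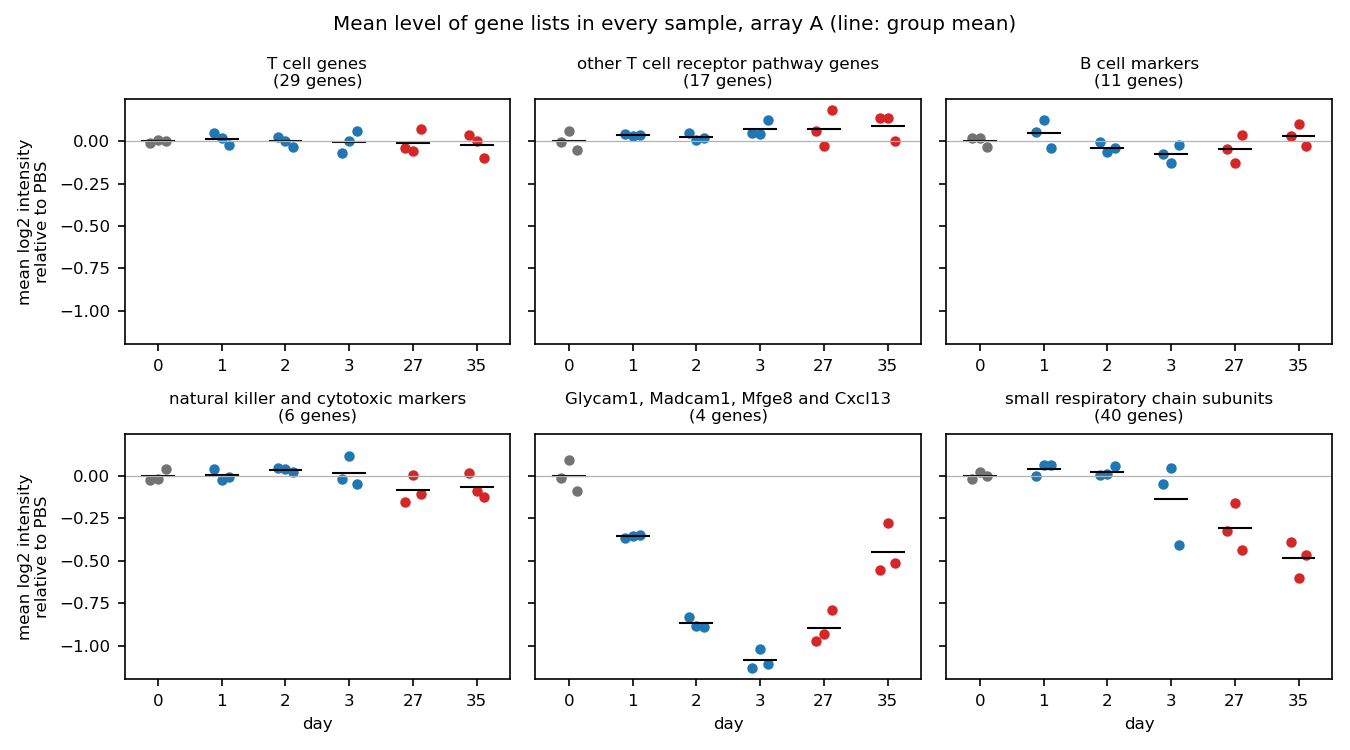
Mean log2 intensity relative to PBS of 6 gene lists on array A (y axis) by day (x axis), with 1 point per sample, 3 samples a day, and a line at the group mean. The mean of the T cell genes, in which changes of opposite sign cancel, stays between -0.097 and 0.073 in every treated sample, Glycam1, Madcam1, Mfge8 and Cxcl13 reach -1.132 at day 3, and the small respiratory chain subunits reach -0.599 at day 35.

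Within the first 3 days the probe sets that moved most belonged to Pik3ip1 and Il7r. At day 1, 0 of 43 T cell probe sets on array A and 0 of 13 on array B were called by limma at an adjusted p under 0.05, where 0.0164% and 0.00799% of all tested probe sets were called. At an unadjusted p under 0.05 there were 2 on array A, both of Il7r, and 2 on array B, both of Pik3ip1, against 3.36% and 7.19% of all tested probe sets. At day 2 the calls were again 0 of 43 and 0 of 13, against 0.114% (0.0899% lower) and 0.024% of all. The unadjusted count was 3 on array A, both of Il7r and 1 of Fyn, and 2 on array B, both of Pik3ip1, against 5.52% and 7.05% of all. At day 3, 0 of 43 were called on array A, where 0.556% of all were called (0.417% lower), and 7 passed unadjusted, where 10.1% of all did. On array B 1 of 13 was called, for lower signal of Pik3ip1, where 0.0799% of all tested probe sets were called and 0.0719% were called lower, and 2 passed unadjusted against 8.28% of all. For the mean of days 1 to 3 against PBS 0 of 43 and 0 of 13 were called, against 0.155% and 0.032% of all. Unadjusted, 4 and 2 passed, against 6.5% and 10.7% of all, and these 6 were both probe sets of Il7r, both of Pik3ip1 and 1 each of Cd5 and Fyn.

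**Figure D2:**
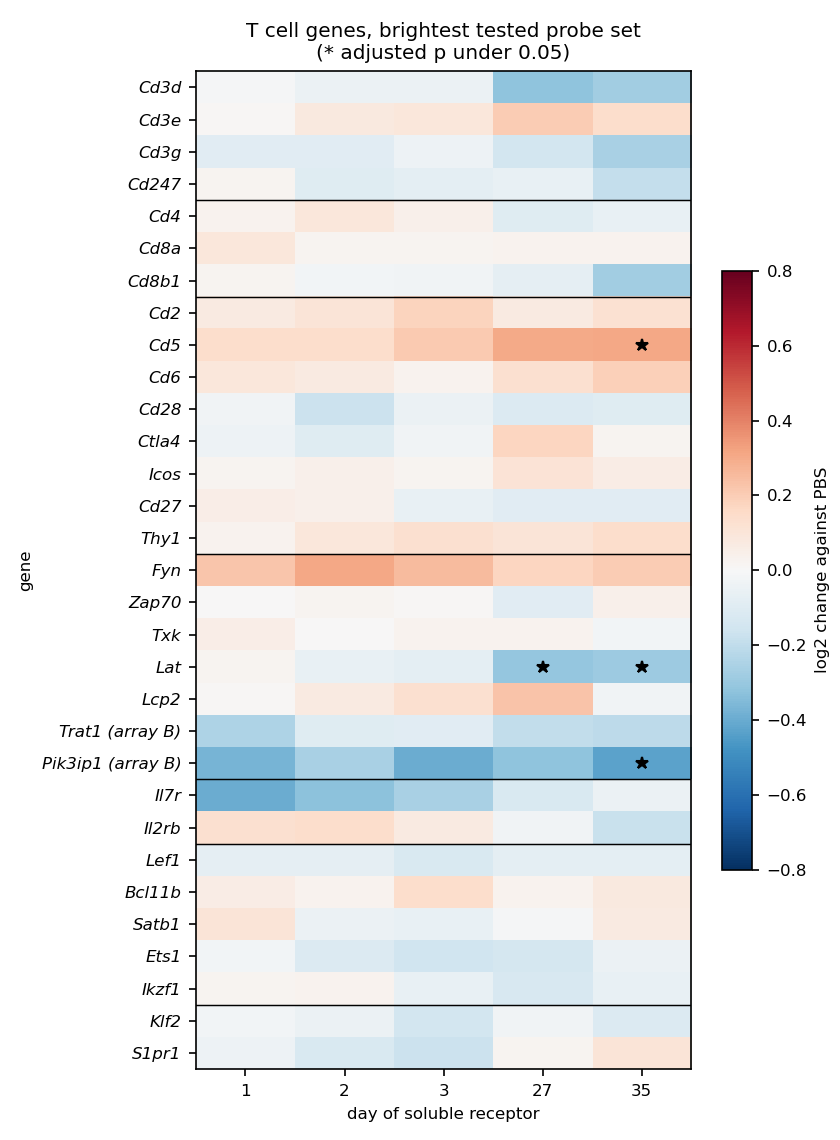
Log2 change against PBS (colour, blue lower and red higher) of the 31 tested T cell genes (rows, grouped by role) at each day of soluble receptor (columns), each gene by its brightest tested probe set, with a star where the adjusted p is under 0.05. Stars stand at days 27 and 35 for Lat and at day 35 for Cd5 and Pik3ip1, and the darkest early cells are those of Il7r at day 1 (-0.40) and Pik3ip1 at day 3 (-0.40).

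Pik3ip1, a membrane protein that inhibits phosphoinositide 3-kinase and dampens T cell activation, was called lower from day 3 on. Its probe set 1439087_a_at on array B read 570, 585.2 and 598.2 units in the PBS samples. It read 474.9, 523.2 and 440.9 at day 1, then 418.6, 427.6 and 468.5 at day 2, and 352.8, 331.4 and 372.1 at day 3. It read 459.5, 313.6 and 412.1 at day 27 and 341.2, 343.1 and 330.6 at day 35. All treated samples lay below the 3 PBS samples, and the day 35 samples were the tightest group. The group mean was 584.5 ± 14.1 (SD, n = 3) in PBS samples, 352.1 ± 20.4 at day 3 and 338.3 ± 6.76 at day 35. The log2 change against PBS was -0.29 at day 1 (SE 0.11, adjusted p = 0.574) and -0.42 at day 2 (SE 0.11, adjusted p = 0.662). It was -0.73 at day 3 (SE 0.11, adjusted p = 0.00867), -0.58 at day 27 (SE 0.11, adjusted p = 0.0278) and -0.79 at day 35 (SE 0.11, adjusted p = 0.000853). The day 35 call held in all 13 alternative settings and with any 1 of the 18 arrays left out. The day 3 call was lost without PBS sample 2, PBS sample 3 or day 3 sample 2 (adjusted p up to 0.091), and the day 27 call without any 1 PBS sample or day 27 sample 2 or 3 (up to 0.17). The day 27 call was also lost in 7 of the 13 alternative settings, among them both other scalings and a fit with the level of the respiratory chain list as a covariate (-0.74, adjusted p = 0.0631).

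The other probe set of Pik3ip1, 1428332_at, was also lower but spread more in the PBS samples. It read 580, 686.3 and 773.8 units with PBS, 497.8, 518.5 and 556.2 at day 1, 518.5, 559.2 and 613.2 at day 2 and 530.6, 474.4 and 531.8 at day 3. It read 545.5, 516.2 and 562.5 at day 27 and 473.2, 553.6 and 479.3 at day 35. Day 2 overlapped PBS through 1 sample, and the other days did not overlap it. The log2 change was -0.40 at day 3 (SE 0.105, adjusted p = 0.313), which was not called, and -0.43 at day 35 (SE 0.105, adjusted p = 0.0296), which was. That call was lost without PBS sample 2 or 3 or day 35 sample 1 or 3 (adjusted p up to 0.14). It held in 9 of the 13 alternative settings. It was lost with quantile scaling, without the 3 arrays of low weight and at an adjusted p under 0.01. It was also lost when the level of the respiratory chain list was added as a covariate.

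Il7r, the interleukin 7 receptor chain that keeps naive T cells alive, was low over the first 3 days and nearer to PBS at the late days, without passing the test against PBS. Its probe set 1448575_at on array A read 918.9, 934.7 and 1053 units in the PBS samples. It read 754.2, 734 and 713 at day 1, 791.2, 791.6 and 732.8 at day 2 and 760.9, 762.4 and 907.3 at day 3. It read 886.8, 744 and 1078 at day 27 and 936.9, 976.5 and 893.2 at day 35. All 9 early samples lay below the 3 PBS samples, and the late samples overlapped both. The early mean differed from PBS by -0.33 on the log2 scale (SE 0.086, 95% interval -0.51 to -0.15, adjusted p = 0.233). Days 27 and 35 together were above days 1 to 3 by 0.25 (SE 0.068, adjusted p = 0.0185), a call that was lost without day 27 sample 3 or day 35 sample 2 (adjusted p up to 0.062). With the respiratory chain covariate this late difference was -0.08 (adjusted p = 0.655), and day 27 was called lower than PBS (-0.38, adjusted p = 0.0476), where the fit without it gave -0.12 (adjusted p = 0.577).

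The second probe set of Il7r, 1448576_at, was dimmer and gave the same early direction. It read 367.5, 401.5 and 535.6 units with PBS, 296.7, 374.5 and 284.1 at day 1, 273.6, 332.9 and 298.9 at day 2 and 272, 302.7 and 339.6 at day 3. It read 377.6, 302 and 458.6 at day 27 and 347.2, 400.6 and 327 at day 35. Among the early samples only day 1 sample 2 reached the PBS range. The early mean differed from PBS by -0.48 (SE 0.126, adjusted p = 0.23), and late minus early was 0.25 (SE 0.099, adjusted p = 0.0962).

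The early call of Il7r depended on the fit. For 1448575_at it passed with array weights (adjusted p = 0.00289), with only the groups compared in the fit (adjusted p = 0.0494), with the respiratory chain covariate (adjusted p = 0.0208) and without the 3 arrays of low weight (adjusted p = 0.0145). Over the other settings and single omissions the adjusted p ran from 0.0638 to 1, and it was 1 without PBS sample 3, where the change was -0.27. Markers of other cells moved over the same days. The 7 fibroblast markers had a mean log2 level of 0.172 to 0.443 relative to PBS over days 1 to 3, with a summed intensity of 10310 to 11260 in PBS samples and 12200 to 14320 over those days. The 9 macrophage and monocyte markers had a mean of 0.062 to 0.239, with a summed intensity of 12410 to 12760 in PBS samples and 12300 to 12810 over those days. That mean covers opposite signs, since at day 3 the 9 markers ran from -0.36 to 0.62. At that day 1 was called lower and 2 higher, where 0.177% and 0.121% of all tested genes were. The part of the fibroblast and macrophage markers in the results for Il7r and Pik3ip1 was not tested.

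**Figure D3:**
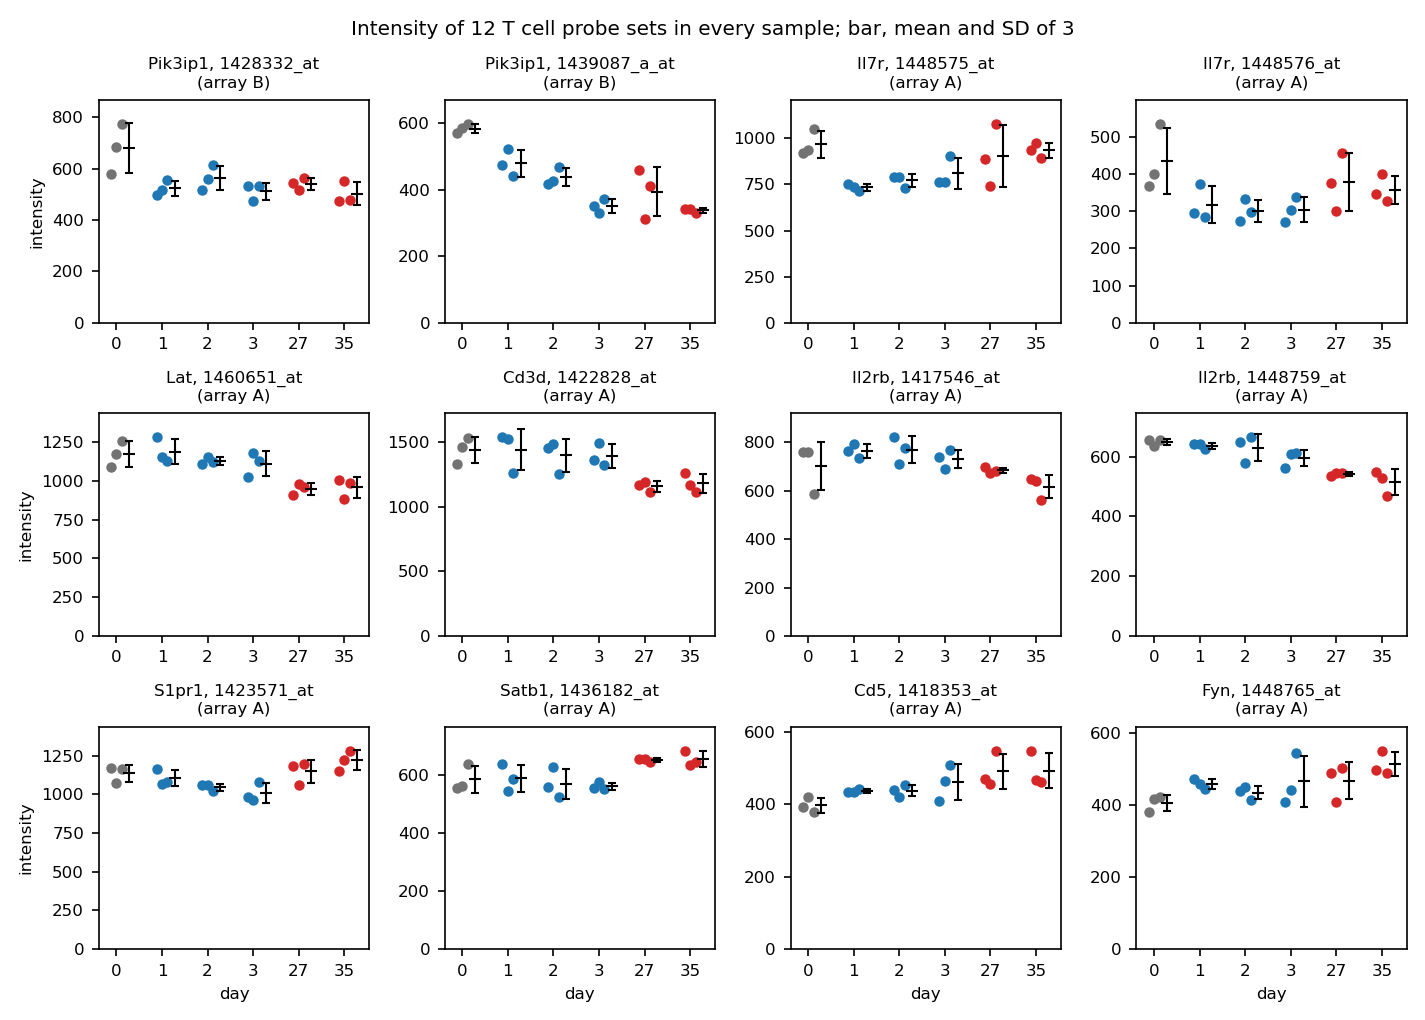
Intensity (y axis, linear and starting at 0) of 12 T cell probe sets in every sample by day (x axis), with the mean and SD of the 3 samples beside each group, PBS in grey, days 1 to 3 in blue and days 27 and 35 in red. All treated samples of Pik3ip1 1439087_a_at lie below the 3 PBS samples, the early samples of Il7r 1448575_at lie below PBS, and the late samples of Lat and of Il2rb 1448759_at lie below all early ones.

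Because Pik3ip1 and Il7r were both low over the first days, and Lat and Cd3d both low at the late days, the 250 bases before their annotated starts are shown with matches to 5 motifs in capitals. The sequences are RefSeq's on mouse build GRCm38.p6, printed 5′ to 3′ on the strand of the gene, and each window ends at the base before the transcription start. The motif of FOXO factors was taken as TGTTTAC, that of KLF factors as CCACCC and that of LEF/TCF factors as CTTTGA. For GATA factors the letters were those of AGATAA, and for ETS factors AGGAAG. Each was searched on both strands, and no matches overlapped in these 4 windows. The window of Pik3ip1 is chr11:3330481-3330730 on the plus strand, and that of Il7r is chr15:9529877-9530126 on the minus strand. The window of Lat is chr7:126369569-126369818 on the minus strand, and that of Cd3d is chr9:44981536-44981785 on the plus strand.
Pik3ip1: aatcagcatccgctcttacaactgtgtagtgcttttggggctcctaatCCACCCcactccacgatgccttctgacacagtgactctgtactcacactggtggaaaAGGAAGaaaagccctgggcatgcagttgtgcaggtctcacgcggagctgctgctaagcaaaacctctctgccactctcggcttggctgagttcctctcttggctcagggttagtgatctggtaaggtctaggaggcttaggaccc
Il7r: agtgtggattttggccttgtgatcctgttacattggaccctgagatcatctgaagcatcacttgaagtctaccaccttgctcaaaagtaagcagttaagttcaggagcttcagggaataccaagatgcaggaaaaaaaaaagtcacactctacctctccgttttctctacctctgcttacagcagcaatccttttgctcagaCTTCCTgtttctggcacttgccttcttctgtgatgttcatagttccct
Lat: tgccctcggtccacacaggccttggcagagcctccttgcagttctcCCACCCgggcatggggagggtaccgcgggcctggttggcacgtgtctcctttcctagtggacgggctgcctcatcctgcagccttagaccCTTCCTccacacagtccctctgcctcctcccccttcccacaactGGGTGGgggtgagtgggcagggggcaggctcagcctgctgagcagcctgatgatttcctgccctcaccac
Cd3d: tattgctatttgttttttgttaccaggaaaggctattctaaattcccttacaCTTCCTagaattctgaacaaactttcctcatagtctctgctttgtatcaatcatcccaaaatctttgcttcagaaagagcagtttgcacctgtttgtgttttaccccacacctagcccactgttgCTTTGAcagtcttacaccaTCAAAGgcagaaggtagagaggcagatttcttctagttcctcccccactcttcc
The window of Pik3ip1 holds 1 KLF match, 202 to 197 bases before the start, and 1 ETS match, 145 to 140 bases before it. That of Il7r holds a single ETS match, 48 to 43 bases before the start. Lat has KLF matches at 204 to 199 and 70 to 65 bases and an ETS match at 114 to 109. Cd3d has LEF/TCF matches at 73 to 68 and 54 to 49 bases and an ETS match at 198 to 193. Of the 34 genes 24 could be matched to 36 such windows. KLF letters occur in 16 of those 36 windows (44.4%) and in 28.1% of all 32851 windows, and ETS letters in 17 (47.2%) and in 29.5%. LEF/TCF letters occur in 8 (22.2%) and in 13.8% of all, GATA letters in 4 (11.1%) and in 9.99%, and FOXO letters in 0 and in 3.17%. A match describes letters only, and these shares come with no test.

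The late time points asked whether T cell transcripts changed over weeks of decoy receptor. Against PBS, day 27 gave 2 lower calls among 43 T cell probe sets on array A, where 3.18% of all tested probe sets passed (2.6% as lower, 0.58% as higher), and 1 lower call among 13 on array B, where 0.328% of all were called, each of them lower. Unadjusted, 7 of 43 and 3 of 13 passed, against 18.4% and 11.3% of all. Day 35 gave 2 lower and 2 higher calls on array A, where 7.36% of all were called, 5.58% lower and 1.77% higher, and 11 passed unadjusted against 22.8% of all. On array B it gave 2 lower calls, both of Pik3ip1, where 3.59% of all were called and 2.88% were called lower, and 3 passed unadjusted against 19.9% of all. The mean of days 27 and 35 against the mean of days 1 to 3 gave 4 lower and 3 higher calls on array A, where 10.4% and 4.98% of all were called lower and higher. That is 16.3% of the T cell probe sets against 15.4% of all, a share near the background, and 16 passed unadjusted against 29.4% of all. On array B 0 of 13 were called by limma and 3 passed unadjusted, where 1.66% of all were called and 13.9% passed unadjusted. Between days 35 and 27, 0 of 43 and 0 of 13 were called and 0 passed unadjusted on either array, where 0% of all were called and 6.66% and 2.83% passed unadjusted.

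The median log2 change of the T cell probe sets on array A was -0.032 at day 35 and -0.012 for late against early, where the median over all tested probe sets was 0.032 and 0.017. With each array brought to a common median, late against early gave 6 lower and 0 higher T cell calls, all on array A. Day 35 gave 6 lower and 0 higher over both arrays, 4 on array A (Il2rb, Lat, Cd3d and Cd3g) and 2 on array B (both of Pik3ip1). The share of all tested probe sets called with this scaling is not given here, so these counts have no background beside them. Over all probe sets of array A the lower share of the calls then went from 67.6% to 86% for late against early, from 75.9% to 88.6% at day 35 and from 81.7% to 93.9% at day 27. The F test over the 6 groups called 2 of 43 T cell probe sets on array A, Lat and Il2rb 1448759_at, where 7.71% of all were called. On array B it called 1 of 13, Pik3ip1 1439087_a_at (adjusted p = 0.00285), where 0.951% of all were called.

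**Figure D4:**
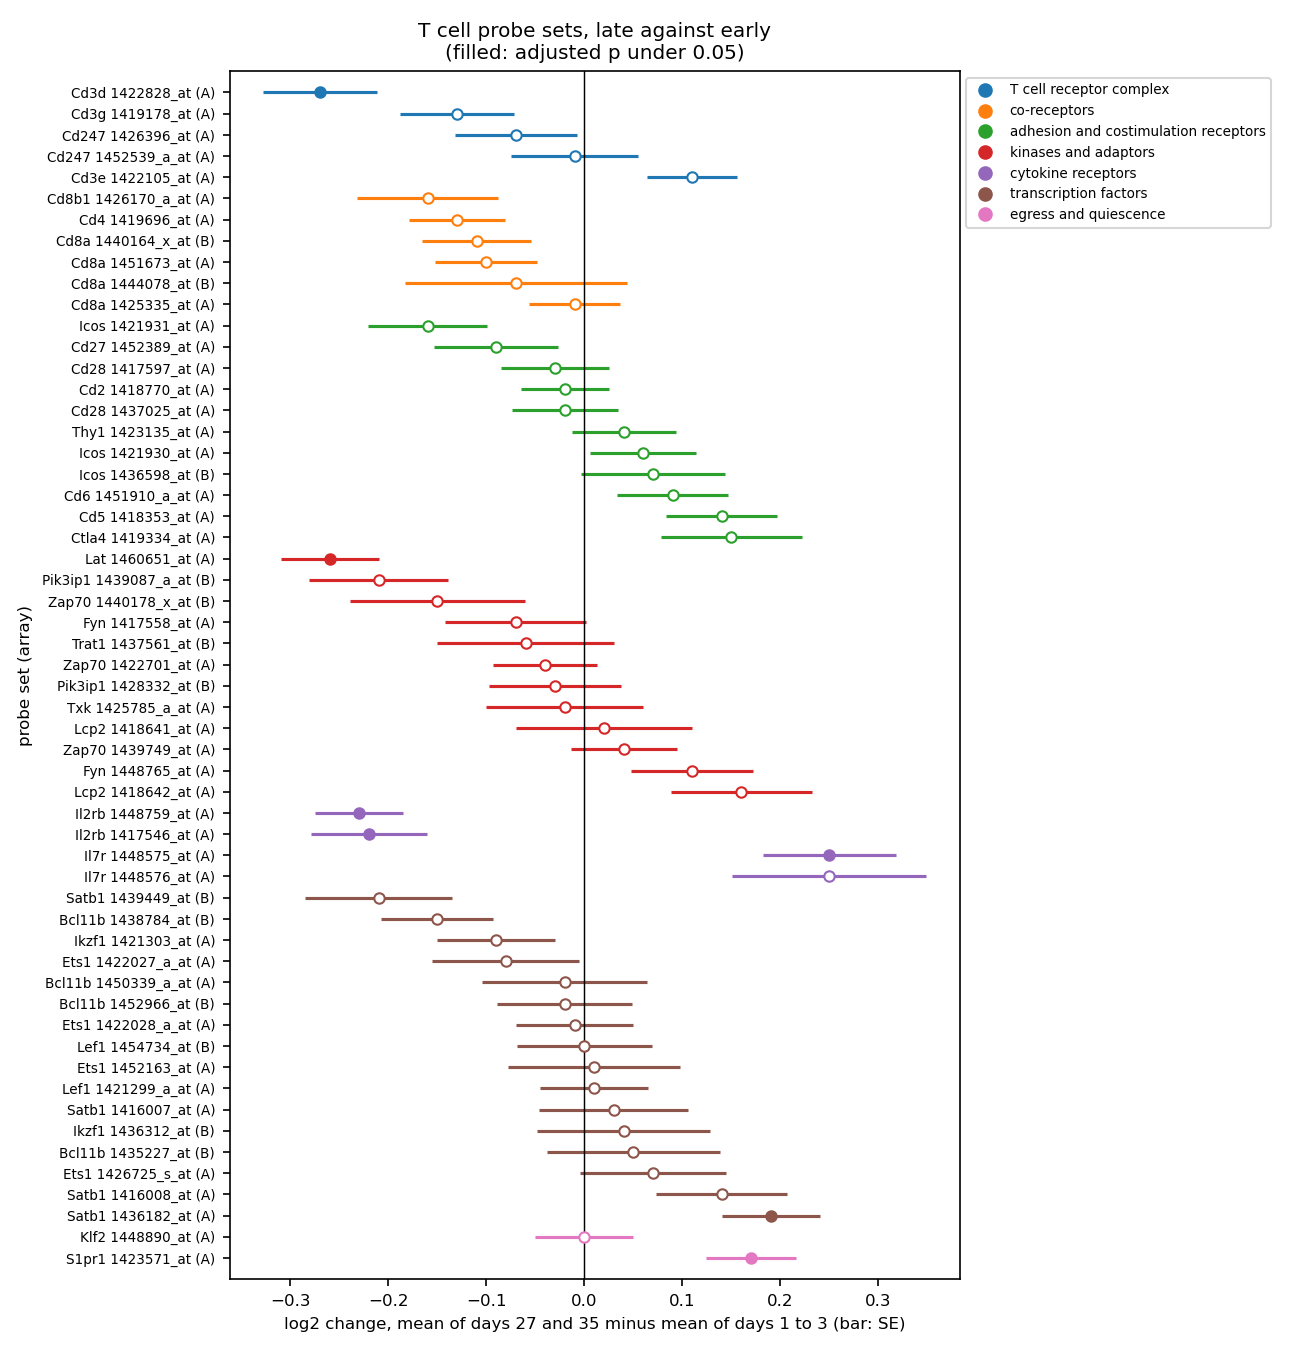
Log2 change of the mean of days 27 and 35 minus the mean of days 1 to 3 (x axis, bar: SE of the fit) for the 56 tested T cell probe sets (y axis), coloured by role and filled where the adjusted p is under 0.05. Filled points lie at -0.27 for Cd3d, -0.26 for Lat, -0.23 and -0.22 for Il2rb, and at 0.17 for S1pr1, 0.19 for Satb1 1436182_at and 0.25 for Il7r 1448575_at, and the last 3 are not called with each array at a common median.

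Within the receptor complex, Cd3d, the CD3 delta chain, fell from the early to the late days, and the other chains did not pass the test in the reported fit. Its probe set 1422828_at read 1332, 1467 and 1531 units with PBS. It read 1539, 1528 and 1259 at day 1, 1456, 1488 and 1255 at day 2 and 1365, 1498 and 1322 at day 3. It read 1166, 1193 and 1115 at day 27 and 1264, 1171 and 1118 at day 35. The late samples lay below all PBS samples and reached the early range only through day 35 sample 1. The mean was 1412 ± 113 (SD, n = 9) over days 1 to 3 and 1171 ± 54.9 (n = 6) over days 27 and 35, a log2 change of -0.27 (SE 0.058, adjusted p = 0.00384). Against PBS it was -0.32 at day 27 (adjusted p = 0.0614) and -0.28 at day 35 (adjusted p = 0.0615). With each array at a common median both were called, at -0.37 (adjusted p = 0.0187) and -0.32 (adjusted p = 0.0321).

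Cd3e, the CD3 epsilon chain that pairs with the delta and gamma chains, pointed the other way. It read 1746, 1779 and 1888 units with PBS, 1915, 1747 and 1803 at day 1, 1936, 1991 and 1794 at day 2 and 1811, 1927 and 2043 at day 3. It read 1927, 2239 and 2074 at day 27 and 1938, 1963 and 2076 at day 35. All late samples were above all PBS samples, and 3 of the 6 were within the early range. Late minus early was 0.11 on the log2 scale (SE 0.046, adjusted p = 0.114). With quantile scaling this difference of Cd3e was 0.16 and was called by limma (adjusted p = 0.0393). Cd3g, the gamma chain, differed by -0.13 late against early (SE 0.058, adjusted p = 0.152), and the zeta chain Cd247 by -0.07 (SE 0.062, adjusted p = 0.498).

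Of the 6 tested probe sets of the co-receptors 0 were called by limma in any of the 8 contrasts. Cd4 read 968.7, 895 and 869.9 units with PBS, 956.6, 846.8 and 987.9 at day 1, 994.2, 950.9 and 955.5 at day 2 and 886.8, 915.8 and 1019 at day 3. It read 825.7, 828.5 and 902.4 at day 27 and 872.2, 829.5 and 922.8 at day 35, and every group overlapped PBS. The late mean minus the early mean was -0.13 (SE 0.049, 95% interval -0.23 to -0.03, adjusted p = 0.0822). Cd8a (1425335_at) read 1107, 1039 and 1044 with PBS, 1149, 1138 and 1105 at day 1, 1134, 1060 and 1052 at day 2 and 1057, 1100 and 1067 at day 3. It read 1011, 1215 and 1039 at day 27 and 1140, 1067 and 1057 at day 35, and every group overlapped PBS here too. For Cd8a the late mean minus the early mean was -0.01 (SE 0.046, 95% interval -0.11 to 0.08). The second Cd8a probe set of array A, 1451673_at, had means of 1036 units with PBS, 1023 over days 1 to 3 and 956.1 over days 27 and 35. It differed from PBS by -0.13 at day 27 (SE 0.081, adjusted p = 0.416) and by -0.10 at day 35 (adjusted p = 0.48). Cd8b1 and a Cd8a probe set of array B spread more. Cd8b1, the beta chain that pairs with Cd8a, read 915.9, 951.3 and 1113 units with PBS and 912.7, 894 and 666.7 at day 35, where all samples lay below PBS. It differed by -0.28 at day 35 (SE 0.111, adjusted p = 0.141) and by -0.16 late against early (adjusted p = 0.137). Cd8a 1444078_at on array B ran from 521.5 to 920.4 units over all arrays and differed by -0.27 at day 35 (SE 0.174, adjusted p = 0.396). The log2 difference of Cd4 minus Cd8a, set to 0 in PBS samples, had a mean of -0.06 ± 0.134 (SD, n = 3) at day 1, 0.06 ± 0.026 at day 2, 0.03 ± 0.112 at day 3, -0.13 ± 0.182 at day 27 and -0.09 ± 0.104 at day 35. For Cd8a this difference used 1425335_at only, and not 1451673_at, whose late means were below its PBS mean.

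Among the 8 adhesion and costimulation receptors only Cd5 was called, higher at day 35. Cd5, a surface receptor that tunes down the T cell receptor signal, read 393.1, 420.4 and 380.2 units with PBS. It read 434.9, 434.3 and 442.6 at day 1, 439.6, 421.5 and 453.4 at day 2 and 409.2, 466.2 and 508.9 at day 3. It read 470.1, 456.7 and 548 at day 27 and 549.2, 468.4 and 461.5 at day 35. Samples of days 1, 2, 27 and 35 lay above all PBS samples, and day 3 overlapped PBS through sample 1. The log2 change was 0.30 at day 27 (SE 0.089, adjusted p = 0.0713) and 0.31 at day 35 (SE 0.089, adjusted p = 0.0424). With each array at a common median it was 0.27 (adjusted p = 0.0635). Leaving out 1 array ended the day 35 call (adjusted p up to 0.17) unless that array was day 3 sample 1 or 3, day 27 sample 2 or 3 or day 35 sample 3.

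The other receptors of this kind were not called in any of the 8 contrasts. Cd2, an adhesion receptor for contact with antigen-presenting cells, differed from PBS by 0.18 at day 3 and 0.12 at day 35, Cd6 by 0.03 and 0.19, and the surface glycoprotein Thy1 by 0.13 and 0.14. The costimulatory receptor Cd28 differed by -0.05 and -0.10, Icos by 0.02 and 0.06 and Cd27 by -0.06 and -0.09. Ctla4, the inhibitory relative of Cd28, differed by -0.03 at day 3 and 0.02 at day 35 and by 0.15 for late against early (adjusted p = 0.162). The probe sets of Icos disagreed for late against early, at 0.06 for 1421930_at, -0.16 for 1421931_at and 0.07 for 1436598_at.

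Among the kinases and adaptors Lat fell at the late days. Lat, the membrane scaffold that Zap70 phosphorylates, read 1092, 1178 and 1260 units with PBS. It read 1283, 1156 and 1131 at day 1, 1112, 1156 and 1122 at day 2 and 1024, 1184 and 1133 at day 3. It read 908.4, 979.4 and 961.9 at day 27 and 1007, 884.1 and 990 at day 35. All 6 late samples lay below all PBS and all early samples. The mean was 1145 ± 68.4 (SD, n = 9) over days 1 to 3 and 955.2 ± 48.6 (n = 6) over days 27 and 35, a log2 change of -0.26 (SE 0.05, adjusted p = 0.00158). Against PBS it was -0.31 at day 27 (SE 0.078, adjusted p = 0.0342) and -0.29 at day 35 (SE 0.078, adjusted p = 0.027). The day 27 call was lost without PBS sample 2 or 3, day 2 sample 1 or day 27 sample 1 or 3 (adjusted p up to 0.17). The day 35 call was lost without PBS sample 2 or 3 or day 35 sample 2 (up to 0.15), and the late against early call was kept under every single omission.

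Fyn, a Src-family kinase that phosphorylates the receptor chains, was called higher at day 35 by 1 of its probe sets. That probe set, 1448765_at, read 380.1, 416.3 and 421 units with PBS, 471.6, 458 and 445 at day 1, 437.7, 450.4 and 414.3 at day 2 and 408.6, 442.2 and 544.3 at day 3. It read 489.4, 408.3 and 502.5 at day 27 and 496.3, 550.7 and 489.6 at day 35, where no sample overlapped PBS. The log2 change at day 35 was 0.34 (SE 0.097, adjusted p = 0.0409), and it was lost when 1 array was left out (up to 0.18) unless that array was day 1 sample 3, day 2 sample 3 or any 1 of days 3 and 27. With each array at a common median the change was 0.30 (adjusted p = 0.0926), and with the respiratory chain covariate it was -0.08 (adjusted p = 0.725). The brighter probe set 1417558_at differed by 0.31 at day 2 (SE 0.111, adjusted p = 0.746) and by 0.20 at day 35 (adjusted p = 0.294).

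The remaining kinases and adaptors were not called. Zap70, the kinase docked on the receptor, differed from PBS by 0.01 at day 3 and 0.04 at day 35 (1422701_at). Its probe set 1440178_x_at on array B read 667.7, 610.6 and 586.4 units with PBS and 542.3, 547.3 and 452.8 at day 35, without overlap, a change of -0.28 (SE 0.138, adjusted p = 0.271). The Tec kinase Txk differed by 0.03 at day 3 and -0.02 at day 35. The adaptor Lcp2 differed by 0.13 and -0.03 at its brighter probe set and by 0.25 and 0.30 at its dimmer one (adjusted p = 0.109 at day 35). Trat1, an adaptor that binds the receptor complex, was under the floor on all 18 arrays of kind A, and on array B it differed by -0.09 at day 3 and -0.21 at day 35 (adjusted p = 0.401).

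Of the cytokine receptors, Il2rb fell from the early to the late days in both of its probe sets, the opposite of the change of Il7r. Il2rb is the chain of the interleukin 2 and interleukin 15 receptors that memory T cells and natural killer cells carry. Its probe set 1448759_at read 654.4, 636.3 and 656.6 units with PBS, 643.3, 641.7 and 625.7 at day 1, 647.8, 579.1 and 665 at day 2 and 563.1, 608.3 and 611.6 at day 3. It read 535.7, 544.7 and 546.2 at day 27 and 548.6, 528.9 and 467.6 at day 35. No late sample reached any early or PBS sample. Late minus early was -0.23 (SE 0.045, adjusted p = 0.00173), and the change against PBS was -0.26 at day 27 (SE 0.07, adjusted p = 0.0496) and -0.34 at day 35 (SE 0.07, adjusted p = 0.00676). Leaving out 1 array ended the day 27 call (up to 0.15) unless that array was day 2 sample 2, day 3 sample 3 or day 35 sample 1 or 3.

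The brighter probe set of Il2rb, 1417546_at, gave a change of like size. It read 761, 760.5 and 587.5 units with PBS, 765.7, 792.4 and 736.3 at day 1, 821.3, 710.4 and 776 at day 2 and 739.1, 690.6 and 766.8 at day 3. It read 696.9, 674.4 and 683.7 at day 27 and 650.1, 640.1 and 561.3 at day 35, and PBS sample 3 lay among the late samples. Late minus early was -0.22 (SE 0.059, adjusted p = 0.0187), and 0.052 was reached without day 35 sample 3. Of 6 tested markers of natural killer and cytotoxic cells, 3 were called lower late against early, where 6.2% of all tested genes were. They were Nkg7 (-0.25, adjusted p = 0.0027), Gzma (-0.25, adjusted p = 0.00291) and Ccl5 (-0.32, adjusted p = 0.00441). The 6 markers ran from -0.32 to 0.11, with a median of -0.089. Their summed intensity was 4578 to 4994 in PBS samples, 4655 to 5469 over days 1 to 3, 4086 to 4662 at day 27 and 4258 to 5064 at day 35. Their part in the result for Il2rb was not tested. Il2ra, the alpha chain of regulatory and activated T cells, stayed between 209 and 271.2 units at one probe set and between 100.3 and 148.6 at the other, below the table median on every array.

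Of the transcription factors, 1 had a call. Satb1, a chromatin organiser of the T lineage, was called higher late against early by 1 of its 4 tested probe sets. That probe set, 1436182_at, read 553.8, 560.5 and 638 units with PBS, 635.6, 543.6 and 585.8 at day 1, 558.6, 626 and 524.1 at day 2 and 553, 574.8 and 552.6 at day 3. It read 654.8, 653.6 and 643 at day 27 and 683.4, 632.3 and 645.4 at day 35, and early and late overlapped only through day 1 sample 1. Late minus early was 0.19 (SE 0.05, adjusted p = 0.0147) there, 0.03 and 0.14 at the other probe sets of array A and -0.21 (SE 0.075, adjusted p = 0.185) on array B. The probe sets of Satb1 therefore did not point one way.

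The other factors were not called in any of the 8 contrasts. Lef1, a partner of beta-catenin in naive T cells, differed from PBS by -0.12 at day 3 and -0.08 at day 35, and Bcl11b, which fixes T lineage commitment, by 0.14 and 0.08. The brighter Lef1 probe set on array B, 1454734_at, pointed the other way, with means of 1328 with PBS, 1394 at day 3 and 1379 at day 35. On array B the probe sets of Bcl11b differed at day 35 by -0.06, -0.16 and 0.07. Ets1 differed by -0.16 and -0.05 at its brightest probe set, and Ikzf1 (Ikaros) by -0.06 and -0.06. The other probe sets of Ets1 did not point one way. From PBS to day 35 the mean of 1426725_s_at went from 1233 to 1347, that of 1422027_a_at from 834.4 to 706.9 and that of 1422028_a_at from 372.8 to 374.4. Foxp3, the factor of regulatory T cells, was too dim to test and read 141.7, 164 and 144.3 units with PBS, 148.5, 128.4 and 105.7 at day 1, 157.6, 138.5 and 122.2 at day 2 and 103.4, 169.1 and 145.8 at day 3. It read 145.9, 151.8 and 189.3 at day 27 and 170.3, 138.3 and 138.7 at day 35, with 3 of 18 arrays under the floor and every group overlapping PBS. Gata3, the factor of type 2 helper cells, read 161.6 to 207.3 units on all arrays.

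Of the egress genes, S1pr1 rose from the early to the late days and Klf2 was not called. S1pr1, the receptor through which T cells leave the node, read 1169, 1073 and 1162 units with PBS. It read 1166, 1069 and 1078 at day 1, 1060, 1059 and 1019 at day 2 and 983.8, 963.2 and 1081 at day 3. It read 1186, 1062 and 1199 at day 27 and 1153, 1225 and 1283 at day 35. The early and late ranges overlapped, and PBS lay between the extremes. Late minus early was 0.17 (SE 0.046, adjusted p = 0.0177), 0.054 was reached without day 27 sample 3, and the change was 0 with the respiratory chain covariate (adjusted p = 0.976). Klf2, the quiescence factor that activates S1pr1, differed from PBS by -0.15 at day 3 (SE 0.077, adjusted p = 0.525) and by -0.11 at day 35, and late minus early was 0.00 (95% interval -0.10 to 0.11).

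Of the small respiratory chain subunits, 36 of 40 were called lower late against early, where 6.2% of all tested genes were, with a median change of -0.386. At day 35, where 4% of all tested genes were called lower, 33 of the 40 subunits were, with a median of -0.484. With their mean as a covariate the late against early calls of Cd3d, Lat, Il2rb, Il7r, S1pr1 and Satb1 were all lost, and among 12231 probe sets of array A the calls went from 1880 to 474. The sizes of the changes did not all shrink. Lat was then -0.22 (adjusted p = 0.162), Il2rb -0.25 (1448759_at, adjusted p = 0.0923) and -0.29 (1417546_at, adjusted p = 0.13) and Satb1 0.21 (adjusted p = 0.183), each close to or beyond its reported size. Cd3d was -0.17 (adjusted p = 0.342), S1pr1 0 and Il7r -0.08. At day 35 only Pik3ip1 1439087_a_at was still called among the T cell probe sets. The covariate itself differs between late and early samples, so the day of treatment and the level of these transcripts cannot be told apart in full.

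Other genes of the T cell receptor pathway had no call. Of 24 tested members of a wider pathway list, such as Vav1, Malt1 and Ptpn22, 0 were called by limma in any of the 8 contrasts, with 0 to 3 passing unadjusted per contrast, where 5.26% of all tested genes were called at day 35 and 9.29% late against early. Their median log2 change was 0.067 at day 35 and 0.037 for late against early, where that over all 12395 tested genes was 0.023 and 0.011. Malt1, a signalling protease downstream of the receptor, differed by -0.36 at day 35 (SE 0.105, adjusted p = 0.0686).

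Of 21 tested genes of lymphocyte trafficking and quiescence, 3 fell late against early and 0 rose. Dapl1, a transcript of naive T cells, fell by 0.52 (SE 0.089, adjusted p = 0.00308) and by 0.98 at day 35 against PBS (adjusted p = 0.000912). The gut-homing receptor Ccr9 fell late against early by 0.23 (SE 0.054, adjusted p = 0.00615) and Btg2 by 0.17 (SE 0.052, adjusted p = 0.0349), where 6.2% of all tested genes were called lower. The chemokine receptor Cxcr4 fell by 0.70 at day 27 (SE 0.174, adjusted p = 0.0335) and by 0.60 at day 35 (adjusted p = 0.0406). Of 17 other transcription factors of the T lineage, 3 fell and 1 rose late against early, where 6.2% of all tested genes were called lower and 3.09% higher. Id2 fell by 0.36 (adjusted p = 0.000433), Id3 by 0.23 (adjusted p = 0.00113) and Tcf3 by 0.20 (adjusted p = 0.0218), and Zeb1 rose by 0.13 (adjusted p = 0.0378). Whether these calls hold with the respiratory chain covariate or another scaling was not tested.

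Of 13 tested B cell markers, 1 was called lower and 2 higher late against early, where 6.2% and 3.09% of all tested genes were. Cd79a fell by 0.26 (adjusted p = 0.000816), while Cd22 (0.18, adjusted p = 0.0229) and Ebf1 (0.25, adjusted p = 0.0196) rose. The 13 markers ran from -0.26 to 0.25, with a median of -0.02.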

How the data were processed

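The deposited values are linear intensities, 1 for each probe set in each of 18 samples on 2 kinds of Affymetrix array. For the authors' software, background correction and scaling, the sources used here give nothing. Control probe sets, 64 per array, were left out. Genes were named from GEO's platform annotation, only where a probe set had 1 symbol (20380 of 22626 probe sets on array A, 14661 of 22511 on array B), and such names can be old.

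Before log2, values under the 20th percentile of their table, 122.6 for array A and 76.57 for array B, were raised to it. Probe sets above the table median (286.7 and 157.9) on 3 or more of 18 arrays were tested, 12231 and 12516. Each table was fitted with limma 3.58.1 in R 4.3.3 (lmFit, eBayes with a mean-variance trend), all 6 groups together and with no covariate. P-values are two-sided and adjusted by Benjamini-Hochberg over all tested probe sets of a table, called at 0.05. Early is the mean of days 1, 2 and 3, late that of days 27 and 35, and the F test asks for any difference between groups. Intensities of different probe sets were used together in the Cd4 minus Cd8a difference, in list levels and to find a gene's brightest probe set. Some were also set beside the table median. A gene in a list is taken by its brightest tested probe set, array A before array B.

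The members, lists, tests and alternatives were chosen with earlier results of these data known. Every gene found is named with its brightest tested probe set, and values in every sample are given for genes with a call in any of the 8 contrasts and for Cd3e, Cd4, Cd8a, Foxp3 and Il7r. From the other lists up to 4 genes with the smallest p were named where the list had calls, and Malt1, Vav1 and Ptpn22 were chosen after their values were seen. Marker lists covered B cells, plasma cells, natural killer cells, innate lymphoid cells (2 tested, 0 called), immature thymocytes, macrophages and fibroblasts. Late against early, 1 of 6 plasma cell markers was called lower and 1 higher, and 3 of 9 macrophage markers were called lower. Of all tested genes 6.2% were lower and 3.09% higher in that contrast. At day 3, 1 macrophage marker was called lower and 2 higher, where 0.177% and 0.121% of all were. At day 35, 5 of 7 fibroblast markers were called higher, where 1.26% of all were. The procedure was run on simulated arrays with noise drawn independently for each probe set. The changes added there were larger than most T cell changes called here, so that run does not cover changes of this size. The covariate fit used the respiratory chain list's mean level on array A for both arrays, matched by sample title, which assumes that like titles share an RNA. Alternatives were the scaling, floor, filter, variance model, array weights, replicate block, groups in the fit, that covariate, a stricter threshold and the omission of arrays. Single calls were followed through them for T cell probe sets only, and calls of genes from the other lists were not.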

Additional observations from a re-analysis of the deposited data

Results flagged for a closer look

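These T cell probe sets differed between late and early treatment by the test of that difference itself, the contrast of the mean of days 27 and 35 with the mean of days 1 to 3. Cd3d (1422828_at) differed by -0.27 on the log2 scale, Lat (1460651_at) by -0.26 and Il2rb by -0.23 (1448759_at) and -0.22 (1417546_at). Il7r (1448575_at) differed by 0.25, Satb1 (1436182_at) by 0.19 and S1pr1 (1423571_at) by 0.17. The 4 lower and 3 higher calls make 16.3% of the 43 T cell probe sets on array A, beside 15.4% of all tested probe sets. All 7 calls were lost when the mean level of the respiratory chain list was added as a covariate. Their values were then -0.17 for Cd3d, -0.22 for Lat, -0.25 and -0.29 for Il2rb, -0.08 for Il7r, 0.21 for Satb1 and 0 for S1pr1, so the changes of Lat, Il2rb and Satb1 kept about their size. The cause was not tested.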

How the results depend on the processing

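The counts reported were 0 calls at days 1 and 2, 1 at day 3, 3 at day 27, 6 at day 35, 0 for the early mean, 7 late against early, 0 for day 35 against day 27 and 3 in the F test, over 56 T cell probe sets. With array weights they were 1 at day 1, 7 at day 2, 3 at day 3, 9 at day 27, 14 at day 35, 4 for the early mean, 20 late against early and 23 in the F test. The share of all tested probe sets called with these weights is not given here, so these counts have no background beside them. On array B the weight of day 2 sample 2 was 17.3, where the other arrays had 0.315 to 1.67. Without the 3 arrays of low weight they were 5 at day 27, 2 for the early mean, 13 late against early and 8 in the F test. Of all tested probe sets on array A, 11.7% were then called at day 27, 0.319% for the early mean and 26.3% late against early. On array B these shares were 0.312%, 0.0399% and 1.07%. With the respiratory chain covariate they were 1 at day 35, 2 for the early mean, 2 late against early (Ikzf1 at -0.40 and Ets1 1422028_a_at at -0.32) and 0 in the F test. Of all tested probe sets on array A, 0.0818% were then called at day 35, 0.204% for the early mean and 3.88% late against early. On array B these shares were 0.519%, 0.0479% and 0%. Under that covariate S1pr1 late against early was 0, Il7r 1448575_at late against early -0.08 and Fyn 1448765_at at day 35 -0.08, each against a positive reported value. At an adjusted p under 0.01 the counts were 0 at day 27, 2 at day 35, 3 late against early and 1 in the F test. With no filter on dim probe sets day 3 had 0, and with only the groups compared day 27 had 0 and the early mean 2. The replicate numbers were not taken as pairs, since not every pair of like-numbered samples correlated above 0.1. Their deviations correlated at 0.034 on average on array A (-0.49 to 0.48) and 0.266 on array B (-0.41 to 0.69), and 8 and 12 of 18 samples correlated best with their own number. With the replicate block the early mean had 2 calls, both of Pik3ip1, and the F test 5. It also called Cd3d at days 27 and 35 and, on array B, Satb1 1439449_at at day 35 (-0.30, adjusted p = 0.0161) and late against early (-0.21, adjusted p = 0.018) and Zap70 1440178_x_at at day 35 (-0.28, adjusted p = 0.0398). Il2rb 1448759_at at day 27 was lost (adjusted p = 0.0614). Over all probe sets of array B the early mean calls went from 4 to 102 (0.815% of all) and the day 27 calls from 41 to 220. The day 35 calls went there from 449 to 1327 and the late against early calls from 208 to 483. On array A 3.34% of all were called with the block at day 27 and 7.54% at day 35. The share for the F test with the block is not given here. Leaving out 1 replicate gave 0 to 1 calls at day 3, 1 to 4 at day 27, 3 to 6 at day 35, 0 to 1 for the early mean, 5 to 9 late against early and 2 to 6 in the F test. The lowest counts at day 27 (1) came without PBS sample 2 or 3, day 2 sample 1 or day 27 sample 1 or 3 of array A, and at day 35 (3) without PBS sample 2 or 3 or day 35 sample 2 of array A. Day 3 had 0 without PBS sample 2 or 3 or day 3 sample 2 of array B, the early mean had 1 without day 27 sample 1 or 2 of array B, and the F test had 5 and 6 without day 3 sample 3 or day 27 sample 2 of array A. Under the other settings run, each count stayed within 1.5 times the reported one. The cause of these shifts was not tested.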
